A study of Mus musculus with 6 samples.

Results

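The accessible chromatin of 10 immediate early genes, Fos, Fosb, Fosl1, Fosl2, Jun, Junb, Jund, Atf3, Batf3 and Maff, was compared between muscle stem cells (MuSCs) freshly isolated from control and from Taf4a sKO mice. Of the 75412 ATAC-seq peaks in the table, 32 belonged to these genes. Of these, 28 carried the symbol of a member, and 4 without any gene lay inside the body of a member (2 in Fosl2, 1 in Atf3 and 1 in Maff). Fosb and Fosl2 had 6 peaks each, Fos and Maff 4 each, Junb, Jund and Atf3 3 each, and Fosl1, Jun and Batf3 1 each. All 32 passed the filter on low values, a mean above 10. A further 2 peaks inside Atf3 carried the identifier of another gene with no symbol and were therefore not counted as members.

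ATAC-seq, in which the Tn5 transposase cuts accessible DNA and adds sequencing adapters to it, was performed in 3 libraries of each genotype. All mice were of the C57BL/6 strain. In Taf4a sKO mice, exons of Taf4a flanked by loxP sites were removed after tamoxifen treatment by Pax7CreERT, a Cre recombinase driven by Pax7, the transcription factor that marks MuSCs, so that the deletion can reach only cells that expressed Pax7 at the time of treatment. For control mice, the study's methods list littermates with the same floxed alleles, either without the Cre allele or with it. Which of these genotypes the 3 control libraries came from, how those mice were treated, and the age of each animal are not stated for these libraries in the sources used here. An age range is given only for the mice of the work as a whole, which were adults of both sexes. MuSCs were sorted as cells negative for SCA1, CD45 and CD31 and positive for Integrin-α7 or a Pax7 reporter. TAF4A is a subunit of TFIID, the general transcription factor that binds core promoters, and the series asked how its loss changes chromatin in MuSCs. Values are read counts per peak that the authors normalized for sequencing depth and rounded. Their sums over all peaks were 37722015, 35226223 and 42803315 in the control libraries and 44311913, 41661725 and 41948821 in the Taf4a sKO libraries.

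AP-1 is a dimer of basic leucine zipper (bZIP) proteins. Fos proteins (Fos, Fosb, Fosl1, Fosl2) bind DNA mainly together with a Jun protein (Jun, Junb, Jund), whereas Jun proteins can also pair with each other. Atf3 and Batf3 are related bZIP factors that pair with Jun proteins, and Maff is a small Maf protein that lacks a transactivation domain of its own. Many of these genes are immediate early genes: they are transcribed within minutes of a stimulus from promoters that are already open, without new protein synthesis. In the Fos promoter, serum response factor binds the CArG box of the serum response element, while CREB proteins bind cAMP response elements (CRE). In MuSCs these genes are known for their fast induction when muscle is damaged or dissociated.

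The Fos promoter illustrates this architecture. The following 292 bases on the plus strand of GRCm38 (chr12:85473576-85473867), shown because they hold both elements, begin just before a CArG box and end just after the TATA box, whose first bases lie 309 and 33 bp upstream of the gene start. Capitals mark these 2 elements.
Fos promoter: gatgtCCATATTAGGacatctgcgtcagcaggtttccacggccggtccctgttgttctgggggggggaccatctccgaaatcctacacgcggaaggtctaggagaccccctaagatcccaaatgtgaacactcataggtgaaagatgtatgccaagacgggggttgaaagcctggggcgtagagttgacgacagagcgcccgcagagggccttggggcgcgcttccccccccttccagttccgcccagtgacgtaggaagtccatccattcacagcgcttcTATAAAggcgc

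On the deposited scale, most peaks of the 10 genes were not called as changed. Each peak was given a limma test of log2(value + 1), its p-value was adjusted over all peaks, and it was called at an adjusted p under 0.05. Of the 32 member peaks, 5 rose in Taf4a sKO MuSCs, 3 fell and 24 were not called. Over all 75384 peaks tested, 28.0% rose and 13.9% fell, against 15.6% and 9.38% of the member peaks. The median log2 fold change was 0.04 over the member peaks and 0.11 over all peaks, so that a member peak with no change relative to the median peak has a value of about 0.11 and not 0. Fold changes of member peaks ran from -0.66 to 0.73. All 3 Taf4a sKO values lay above all 3 control values in 9 member peaks and below them in 3, where 32.3% and 18.0% of all peaks did so. The thresholds of the study's methods, a mean above 10 and a log2 ratio of group means beyond 1 in either direction, were met by 0 of the 32 member peaks and by 12.4% of all peaks. A fall in a bulk library can reflect fewer cells with an open site or a less open site in each cell, and these cannot be told apart here.

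**Figure D1:**
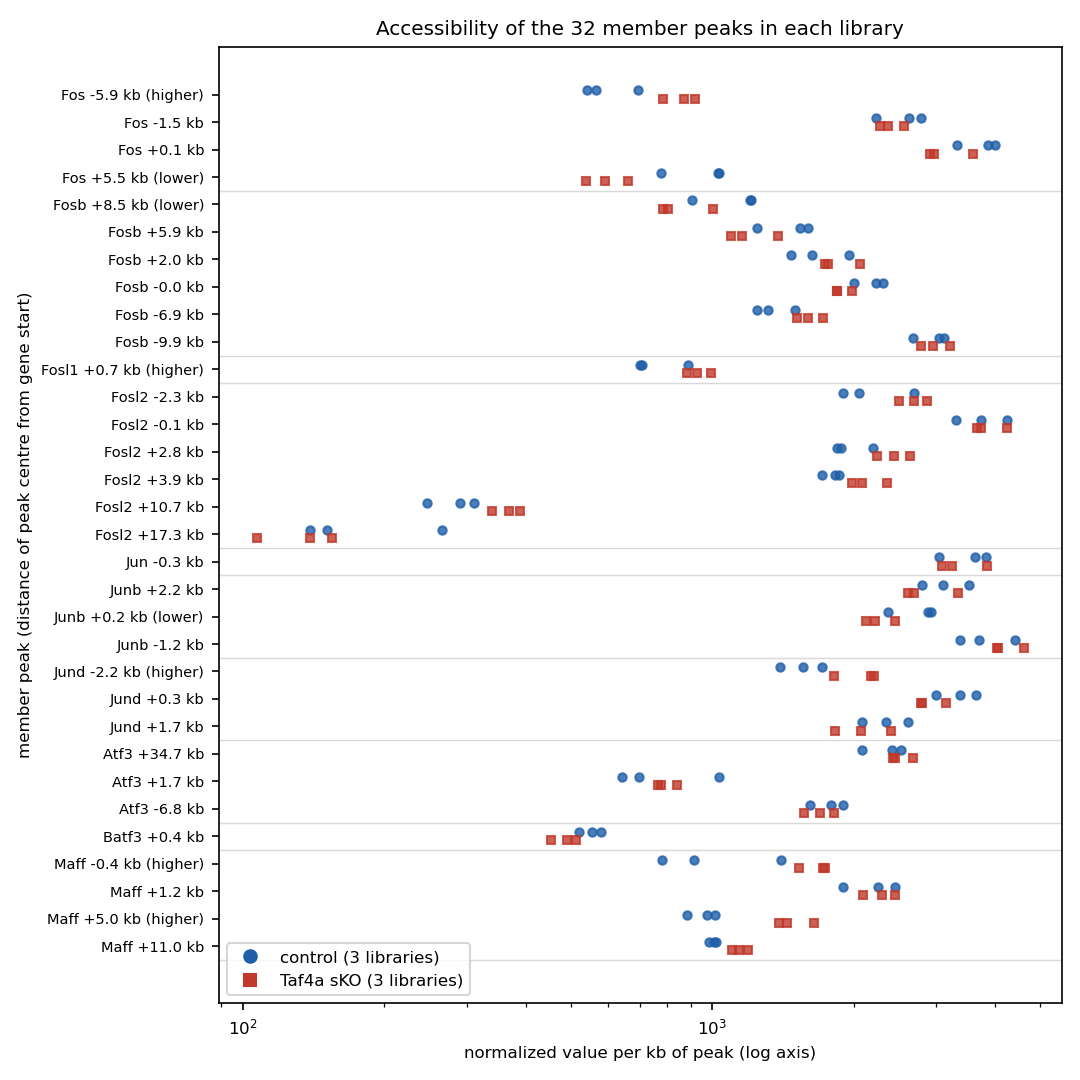
Normalized value per kb of peak (horizontal, log axis) of each of the 32 member peaks (vertical, named by gene and by the distance of the peak centre from the gene start in kb, negative upstream) in the 3 control libraries (blue circles) and the 3 Taf4a sKO libraries (red squares). In most rows the 2 genotypes lie within the same range, and the 8 called peaks are marked as higher or lower.

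Another scaling of the libraries shifted this balance. When the libraries were scaled by the median of ratios to a common reference, which places the median peak at -0.01, 5 member peaks rose and 12 fell, while 25.3% of all peaks rose and 22.5% fell. Quantile normalization called 3 higher and 13 lower, where 24.8% of all peaks rose and 25.1% fell. The deposited scale without control library 3 gave 13 higher and 1 lower, beside 28502 higher and 9731 lower of 75359 peaks. Whether a weakly changed peak was called thus depended on the scaling and on single libraries, and the values below are on the deposited scale, with the median-of-ratios value where the call of a named peak differed. A total of 4 peaks (2 of Fos and 2 of Maff) were called in the same direction by limma under every scaling, filter and left-out library that was tried.

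**Figure D2:**
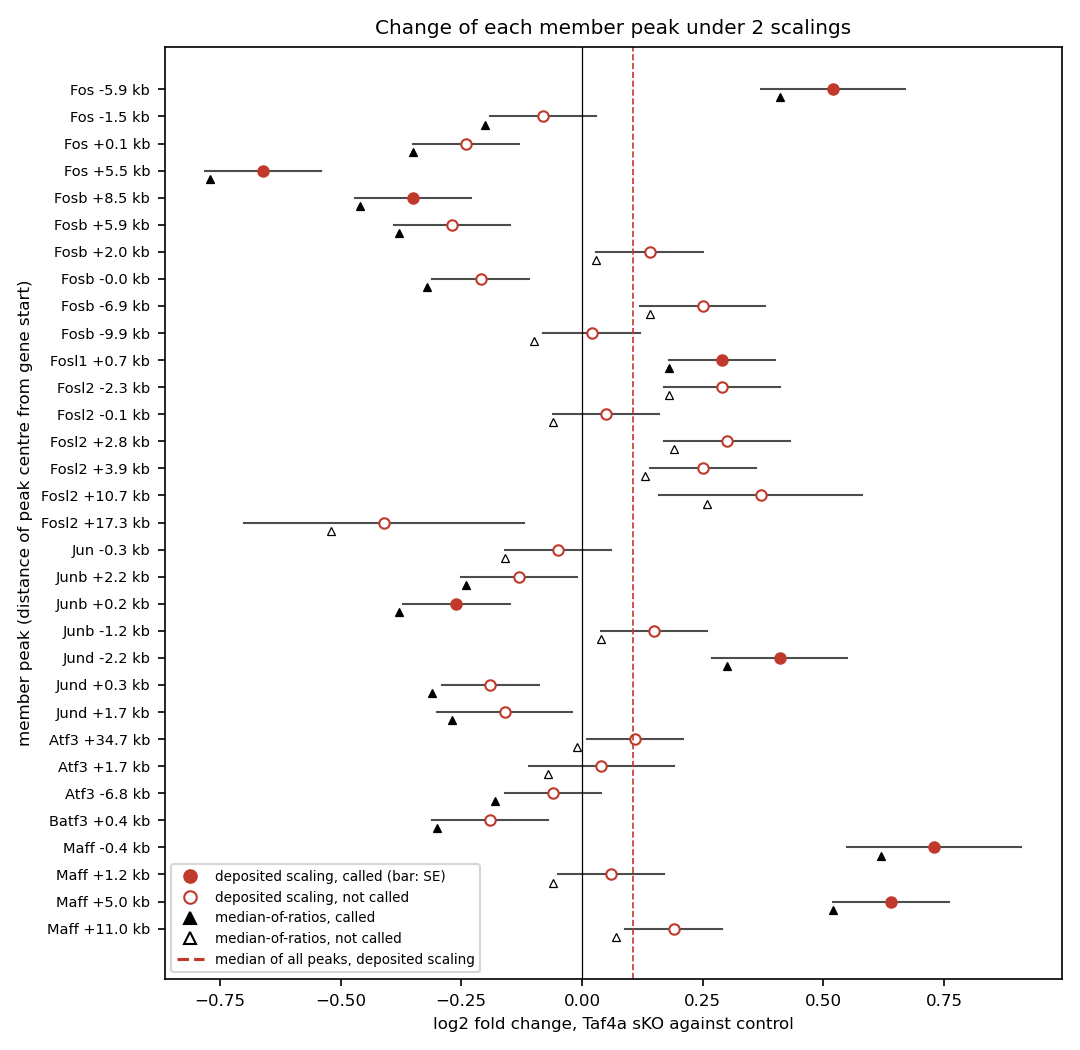
Log2 fold change (Taf4a sKO against control, horizontal) of each of the 32 member peaks (vertical) on the deposited scale (red circles, filled where called, bars show ± 1 SE) and after median-of-ratios scaling (black triangles, filled where called). The dashed line is the median of all peaks on the deposited scale, 0.11; the triangles sit to the left of the circles, and 5 peaks are called higher under both scalings while 3 and 12 are called lower.

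The largest fall was found downstream of Fos, which encodes the founding member of the Fos family. The intergenic peak at chr12:85478667-85480182, centred 5534 bp downstream of the gene start and so beyond the gene end, had values of 1566, 1180 and 1558 in the control libraries and of 1002, 895 and 815 in the Taf4a sKO libraries. Each Taf4a sKO library was thus below each control library. The mean fell from 1435 ± 221 to 904 ± 93.8 (SD, n = 3 each), a log2 fold change of -0.66 (SE 0.12, limma adjusted p = 0.00016). On the median-of-ratios scale the log2 fold change was -0.77 (adjusted p = 2e-05). The central 300 bases of this peak (chr12:85479275-85479574, plus strand, GRCm38) are printed because no other member peak fell as much. Neither an AP-1 site nor a CRE or CArG box was found in the whole peak, and capitals mark the reverse complement of a CCAAT box, the motif bound by NF-Y. A CCAAT box is common: 52.8% of all peaks tested held one, 47.5% of those that fell and 53.2% of those not called.
Fos downstream peak: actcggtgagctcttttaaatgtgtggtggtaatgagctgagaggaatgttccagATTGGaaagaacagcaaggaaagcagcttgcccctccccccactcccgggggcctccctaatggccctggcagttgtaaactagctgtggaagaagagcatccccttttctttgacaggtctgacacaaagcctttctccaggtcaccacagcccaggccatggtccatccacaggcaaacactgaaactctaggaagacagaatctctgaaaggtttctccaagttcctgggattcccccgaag

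Upstream of the same gene, a weaker peak moved the other way. The intergenic peak at chr12:85467846-85468220, centred 5857 bp before the Fos start, had values of 203, 212 and 261 in control and of 326, 295 and 345 in Taf4a sKO MuSCs, and the groups did not overlap. Its mean rose from 225 ± 31.2 to 322 ± 25.2 (SD, n = 3 each; log2 fold change 0.52, SE 0.15, limma adjusted p = 0.0064).

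The Fos promoter peak itself lay between these changes. This peak (chr12:85473199-85474742), which covers the sequence printed above, had values of 5981, 5116 and 6181 in control and of 5556, 4574 and 4503 in Taf4a sKO MuSCs. One Taf4a sKO library reached into the control range, and the difference was not called on the deposited scale (log2 fold change -0.24, SE 0.11, limma adjusted p = 0.072). After median-of-ratios scaling it was called lower (-0.35, adjusted p = 0.00097). A second upstream peak, centred 1541 bp before the start, had means of 2397 ± 272 and 2256 ± 136 (SD, n = 3 each) with a log2 fold change of -0.08 (adjusted p = 0.57), and was called lower after median-of-ratios scaling (-0.20, adjusted p = 0.028). Summed over its 4 peaks, the value of Fos was 10374, 8604 and 10470 in control and 9290, 7988 and 7802 in Taf4a sKO MuSCs, on average 14.8% lower with overlapping groups.

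A comparison within each library, which scaling each library by 1 factor cannot change, was added after the values had been seen. Relative to the Fos promoter peak of the same library, the mean log2 ratio of the downstream peak went from -2.01 ± 0.09 to -2.43 ± 0.07 (SD, n = 3 each), a difference of -0.42. The upstream peak went from -4.67 ± 0.17 to -3.91 ± 0.19 (SD, n = 3 each), a difference of 0.76. In both cases the genotypes did not overlap. These peaks were chosen for their call, so the ratios are a description, and 3 against 3 libraries cannot give a two-sided exact permutation p below 0.1.

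**Figure D3:**
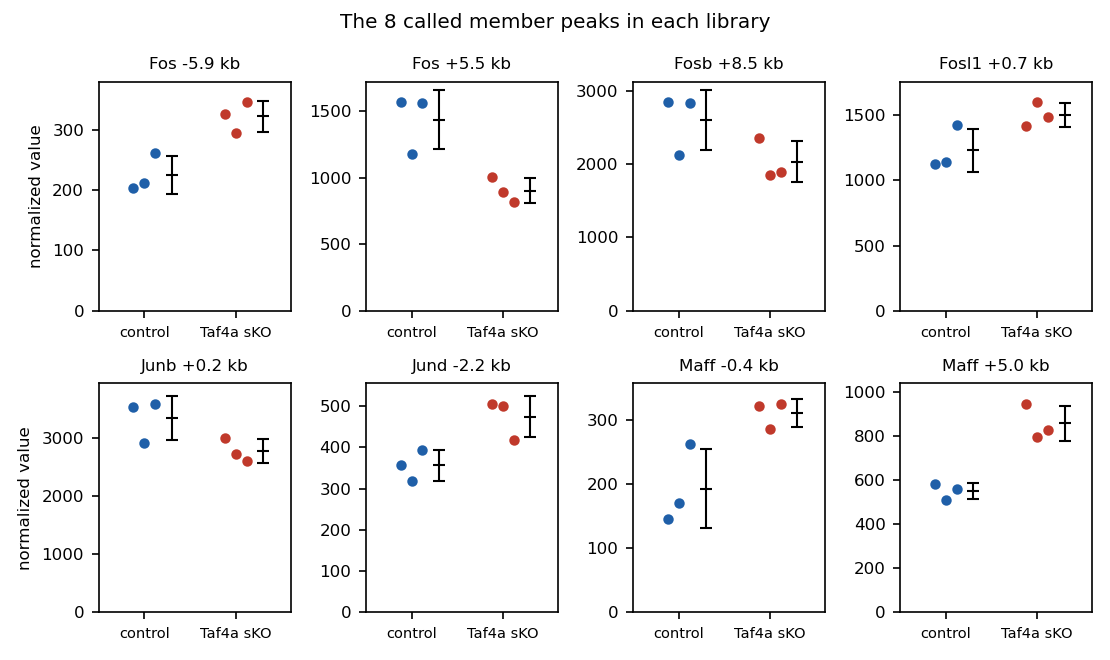
Normalized value (vertical) of the 8 called member peaks in the 3 control libraries (blue points) and the 3 Taf4a sKO libraries (red points), with the mean and SD of each genotype as black bars; panel titles give the gene and the distance of the peak centre from the gene start in kb. The genotypes are apart in the 2 Fos peaks, the 2 Maff peaks and the Jund peak, and overlap in those of Fosb, Fosl1 and Junb.

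Fosb, a close relative of Fos, held 6 peaks, of which 1 fell. The peak at chr7:19300418-19302769, centred 8458 bp downstream of the Fosb start past the end of the gene, also covers the start of the noncoding gene Gm26802. Its values were 2840, 2124 and 2829 in control and 2356, 1851 and 1890 in Taf4a sKO MuSCs, with 1 library of each genotype inside the range of the other. The log2 fold change was -0.35 (SE 0.12, limma adjusted p = 0.029), and the call was lost without any 1 of 4 of the 6 libraries (controls 1 and 3, Taf4a sKO 2 and 3), with an adjusted p of up to 0.12.

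The Fosb promoter peak (chr7:19309439-19310705) had values of 2930, 2543 and 2828 in control and of 2515, 2335 and 2331 in Taf4a sKO MuSCs. All Taf4a sKO values were lower, but the difference was not called (log2 fold change -0.21, adjusted p = 0.10). This peak became called after median-of-ratios scaling (-0.32, adjusted p = 0.00036), as did the exonic peak centred 5916 bp downstream (-0.27 on the deposited scale, adjusted p = 0.08; -0.38 and 0.0023 after scaling). The remaining 3 peaks of Fosb had log2 fold changes of 0.02 to 0.25 and none was called on either scale. Like the Fos promoter peak, the Fosb promoter peak holds 1 CArG box (chr7:19310293-19310332, plus strand), shown with 15 bases on either side and with the box in capitals.
Fosb CArG box: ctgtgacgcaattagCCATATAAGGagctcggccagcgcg

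Fosl1, which encodes Fra-1, carried a single peak over its start (chr19:5447443-5449049), which had values of 1127, 1139 and 1424 in control and of 1418, 1599 and 1489 in Taf4a sKO MuSCs. The lowest Taf4a sKO value was just under the highest control value. The mean rose from 1230 ± 168 to 1502 ± 91.2 (SD, n = 3 each; log2 fold change 0.29, SE 0.11, limma adjusted p = 0.037), and 4 of the 6 fits without 1 library (controls 1 and 2, Taf4a sKO 2 and 3) lost the call, with an adjusted p of up to 0.18. Quantile normalization lost it too (0.13, adjusted p = 0.11). Of the members' peaks over an annotated start, only this one was called higher on the deposited scale. It holds 2 AP-1 sites, on opposite sides of its centre, shown here with 20 bases on either side (plus strand, GRCm38, chr19:5447877-5447923 and chr19:5448835-5448881) and the 7 letters of the site in capitals.
Fosl1 site 1: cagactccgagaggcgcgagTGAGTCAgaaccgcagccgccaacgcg
Fosl1 site 2: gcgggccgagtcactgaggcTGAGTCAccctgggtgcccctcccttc

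Fosl2, which encodes Fra-2, had 6 peaks and none was called on the deposited or the median-of-ratios scale. Its promoter peak (chr5:32134989-32136508) had values of 5672, 5034 and 6464 in control and of 6452, 5680 and 5571 in Taf4a sKO MuSCs, almost the same range (log2 fold change 0.05, SE 0.11, adjusted p = 0.74). In 3 weaker peaks in the gene body, centred 2773, 3930 and 10667 bp downstream of the start, all Taf4a sKO values lay above all control values. Their log2 fold changes were 0.30, 0.25 and 0.37, with adjusted p of 0.064, 0.082 and 0.16, so the separation did not pass the test.

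Jun, the central AP-1 partner, had the highest value of any member peak, in a wide peak that did not change. This 2529 bp peak over its start (chr4:95051299-95053827), which also covers the start of the divergent noncoding gene Junos, had values of 9165, 7702 and 9686 in control and of 9729, 8182 and 7819 in Taf4a sKO MuSCs. The ranges coincided (log2 fold change -0.05, SE 0.11, limma adjusted p = 0.77). Among the alternatives, quantile normalization called it lower, by -0.12 (adjusted p = 0.00017).

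Junb, a Jun protein often induced together with Fos, had a promoter peak that fell slightly. This peak (chr8:84977890-84979119) had values of 3537, 2918 and 3597 in control and of 3011, 2730 and 2614 in Taf4a sKO MuSCs, so that control library 2 lay below the highest Taf4a sKO library. The log2 fold change was -0.26 (SE 0.11, limma adjusted p = 0.048). The call did not hold without control library 1 or 3 or without Taf4a sKO library 2 or 3, with an adjusted p of up to 0.22, nor with a minimum mean of 50 (adjusted p = 0.052). It was stronger after median-of-ratios scaling (-0.38, adjusted p = 0.00014). The peak centred 2224 bp downstream (chr8:84976188-84976799) had means of 1922 ± 221 and 1763 ± 246 (SD, n = 3 each) and was called lower only after scaling by median of ratios (-0.24, adjusted p = 0.012) or by quantiles (-0.27, adjusted p = 0.0044), not on the deposited scale (-0.13, adjusted p = 0.41). The adjacent upstream peak, centred 1216 bp before the start, had means of 3626 ± 502 and 4018 ± 302 (SD, n = 3 each; log2 fold change 0.15, adjusted p = 0.26). Within each library the log2 ratio of the promoter peak to this upstream peak went from -0.11 ± 0.11 to -0.53 ± 0.03 (SD, n = 3 each) with no overlap. The upstream peak holds a CArG box, printed with 15 bases on either side (chr8:84980144-84980183, plus strand).
Junb CArG box: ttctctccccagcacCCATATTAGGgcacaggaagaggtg

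Jund, the Jun protein with the steadiest expression in many cells, differed between a small upstream peak and its promoter. The 229 bp peak at chr8:70696610-70696838, centred 2225 bp before the start, had values of 357, 319 and 393 in control and of 505, 500 and 417 in Taf4a sKO MuSCs. The groups did not overlap (log2 fold change 0.41, SE 0.14, limma adjusted p = 0.018), but leaving out control library 2 or Taf4a sKO library 1 or 2 ended the call (adjusted p of up to 0.092), as did quantile normalization (0.19, adjusted p = 0.15). The promoter peak (chr8:70698287-70700189), which also covers the antisense gene Gm11175, had values of 6402, 5691 and 6940 in control and of 5976, 5299 and 5325 in Taf4a sKO MuSCs and was not called (log2 fold change -0.19, adjusted p = 0.13). After median-of-ratios scaling it was called lower (-0.31, adjusted p = 2.5e-05). It holds a CRE. The intergenic peak centred 1712 bp downstream (chr8:70700554-70700769), with means of 507 ± 56.5 and 454 ± 62.2 (SD, n = 3 each), had a log2 fold change of -0.16 (adjusted p = 0.36) and after the same scaling of -0.27 (adjusted p = 0.04).

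Atf3, a stress-induced repressor and activator of the Atf family, showed no called peak among its 3 on the deposited scale. The peak over the downstream annotated starts (chr1:191182411-191184203), to which the table gives no gene, had values of 4332, 3743 and 4534 in control and of 4804, 4386 and 4357 in Taf4a sKO MuSCs (log2 fold change 0.11, SE 0.10, adjusted p = 0.42). The intronic peak nearest to the outermost gene start (chr1:191215899-191216820) had values of 642, 593 and 953 in control and of 777, 718 and 706 in Taf4a sKO MuSCs (0.04, adjusted p = 0.85). There the SD of the control libraries, 195, exceeded the difference between the means, 729 and 734. The peak centred 6752 bp upstream, over the start of D730003I15Rik (chr1:191223950-191225633), had values of 3015, 2725 and 3198 in control and of 3056, 2857 and 2644 in Taf4a sKO MuSCs. The ranges overlapped (log2 fold change -0.06, adjusted p = 0.66), and it was called lower after median-of-ratios scaling (-0.18, adjusted p = 0.0086). Of the 2 intronic peaks that carried another gene's identifier, the one at chr1:191189863-191190225 rose, from 56, 91 and 115 to 186, 189 and 163, with no overlap (log2 fold change 1.09, SE 0.21, limma adjusted p = 0.00045). With these 2 peaks counted as members, 6 of 34 peaks rose and 3 fell.

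Batf3, which in other tissues is known for its role in dendritic cells, had the least accessible promoter of the 10 genes per kb of peak. Its single peak (chr1:191097545-191098881) had values of 775, 695 and 742 in control and of 654, 606 and 686 in Taf4a sKO MuSCs. All Taf4a sKO values were lower, without a call (log2 fold change -0.19, SE 0.12, adjusted p = 0.21), and the call was made after median-of-ratios scaling (-0.30, adjusted p = 0.012).

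Maff showed the clearest gain among the 10 genes. Of its 4 peaks, 2 rose, and both kept their limma call under every scaling, filter and left-out library tried. The 187 bp peak at chr15:79346166-79346352, which ends 269 bp before the outermost annotated start, had values of 146, 171 and 262 in control and of 322, 286 and 325 in Taf4a sKO MuSCs (log2 fold change 0.73, SE 0.18, limma adjusted p = 0.0029). The intronic peak at chr15:79351366-79351939, centred 5032 bp downstream, had values of 582, 508 and 560 in control and of 945, 796 and 828 in Taf4a sKO MuSCs (0.64, SE 0.12, adjusted p = 0.00015). In both peaks the genotypes were fully apart. The upstream peak is printed whole (plus strand, GRCm38), since it is the most increased member peak and holds an AP-1 site, marked by capitals.
Maff upstream peak: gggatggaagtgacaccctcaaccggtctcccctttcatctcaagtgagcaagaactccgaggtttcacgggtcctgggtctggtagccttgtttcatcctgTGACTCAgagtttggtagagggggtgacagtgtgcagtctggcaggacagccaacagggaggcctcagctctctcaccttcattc

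The much stronger Maff peak over the downstream annotated starts did not follow. It spans chr15:79347005-79348676 and had values of 3768, 3177 and 4091 in control and of 4094, 3848 and 3500 in Taf4a sKO MuSCs (log2 fold change 0.06, SE 0.11, adjusted p = 0.70). Relative to it within each library, the log2 ratio rose from -4.28 ± 0.37 to -3.61 ± 0.17 for the upstream peak and from -2.73 ± 0.12 to -2.15 ± 0.10 for the intronic peak (SD, n = 3 each), without overlap. This start-site peak holds a CRE, as does that of Jund; both are printed with 15 bases on either side (plus strand; chr15:79347476-79347513 and chr8:70698720-70698757).
Maff CRE: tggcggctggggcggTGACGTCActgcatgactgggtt
Jund CRE: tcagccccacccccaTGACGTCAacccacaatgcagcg

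Levels were compared between genes per kb of peak, at the strongest peak over an annotated start of each gene (for Junb, the peak over the gene start). In control MuSCs the order was Fosl2 (3765 ± 471 per kb), Fos (3730 ± 367), Jun (3500 ± 407), Jund (3334 ± 329), Junb (2724 ± 306), Atf3 (2344 ± 229), Maff (2200 ± 277), Fosb (2184 ± 158), Fosl1 (765 ± 105) and Batf3 (552 ± 30.1; SD, n = 3 each). The ranges of the first 4 genes overlapped from one to the next, as did those of Junb, Atf3, Maff and Fosb. Gaps without overlap separated Jund from Junb, Fosb from Fosl1 and Fosl1 from Batf3. The gap between Jund and Junb rests on the peak chosen for Junb. The Junb peak centred 2224 bp downstream of the gene start, also over an annotated start, was stronger per kb (3140 in control, 2881 in Taf4a sKO MuSCs). The Fosl2 and Fos peaks were more accessible per kb than 99.5% of all peaks over a transcription start site, and the Fosb peak still exceeded 90.3% of them. Fosl1 exceeded 39.8% and Batf3 29.7%. In Taf4a sKO MuSCs the order was much the same, with Jun ahead of Fos and with Junb, at the peak over its gene start, behind Atf3 and Maff. Of these 10 start-site peaks, 1 rose (Fosl1) and 1 fell (Junb), with a median log2 fold change of -0.12. The fall and the median hold for this choice of Junb peak. The stronger Junb peak was not called on the deposited scale (log2 fold change -0.13, limma adjusted p = 0.41).

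Taking as promoter the peak that covers or lies nearest to the gene start, which for Atf3 is the intronic peak and for Maff the small upstream peak, 2 rose (Fosl1 and Maff), 1 fell (Junb) and 7 were not called, again with a median of -0.12. Of all 15698 peaks over a transcription start site, 13.8% rose and 6.26% fell, with a median of 0.07. After median-of-ratios scaling, 2 of the 10 promoter peaks rose and 5 fell (Fos, Fosb, Junb, Jund and Batf3), where 13.4% and 22.6% of all start-site peaks did. The members' peaks are strong, and the calls differed with strength: among all peaks with a mean of at least 1000, 21.5% rose and 2.46% fell, and among the 19 member peaks of that strength, 1 rose and 3 fell. After median-of-ratios scaling 22.6% of all peaks of that strength rose and 17.4% fell, against 1 and 9 of the 19. After quantile normalization 21.7% rose and 26.5% fell, against 0 and 10 of the 19. On the deposited scale, among the 13 weaker member peaks, 4 rose and 0 fell (limma), where 29.3% and 16.2% of all weaker peaks did. Of the 13, 4 had a negative log2 fold change. After median-of-ratios scaling the same 4 rose, but weaker peaks of Fosb (-0.38), Jund (-0.27) and Batf3 (-0.30) were called lower. Summed over the 32 peaks, the members took 0.196%, 0.183% and 0.186% of the total value in the control libraries and 0.174%, 0.165% and 0.160% in the Taf4a sKO libraries.

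Peaks in the surroundings of the genes were described separately. Within 50 kb of the 10 gene starts lay 95 further peaks, including peaks of neighbouring genes, of which 27 rose, 8 fell and 60 were not called. The share that rose, 28.4%, was close to that of all peaks. After median-of-ratios scaling 25 rose and 22 fell, and 33 of the 35 calls were kept with their direction. Of the 6 such peaks around Jun, 5 rose and 0 fell (limma), and the sixth had a log2 fold change of -0.09 (adjusted p = 0.72). All 5 lie upstream of Jun in introns of Junos, the noncoding gene transcribed away from Jun. The peak centred 48596 bp upstream (chr4:95100641-95100995) had values of 110, 85 and 100 in control and of 319, 347 and 348 in Taf4a sKO MuSCs (log2 fold change 1.78, SE 0.16, limma adjusted p = 1.3e-08). The peak centred 30462 bp upstream went from 250, 234 and 323 to 679, 603 and 622 (1.25, adjusted p = 3.2e-07), and its weak neighbour 29672 bp upstream from 31, 30 and 49 to 82, 67 and 88 (1.11, adjusted p = 0.00081). The genotypes were separate in all 5, whereas they coincided at the Jun promoter. After median-of-ratios scaling 4 of the 5 were still called, and the weakest, at chr4:95098052-95098853, was not (0.44 on the deposited scale, adjusted p = 0.016; 0.32 and 0.052 after scaling).

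**Figure D4:**
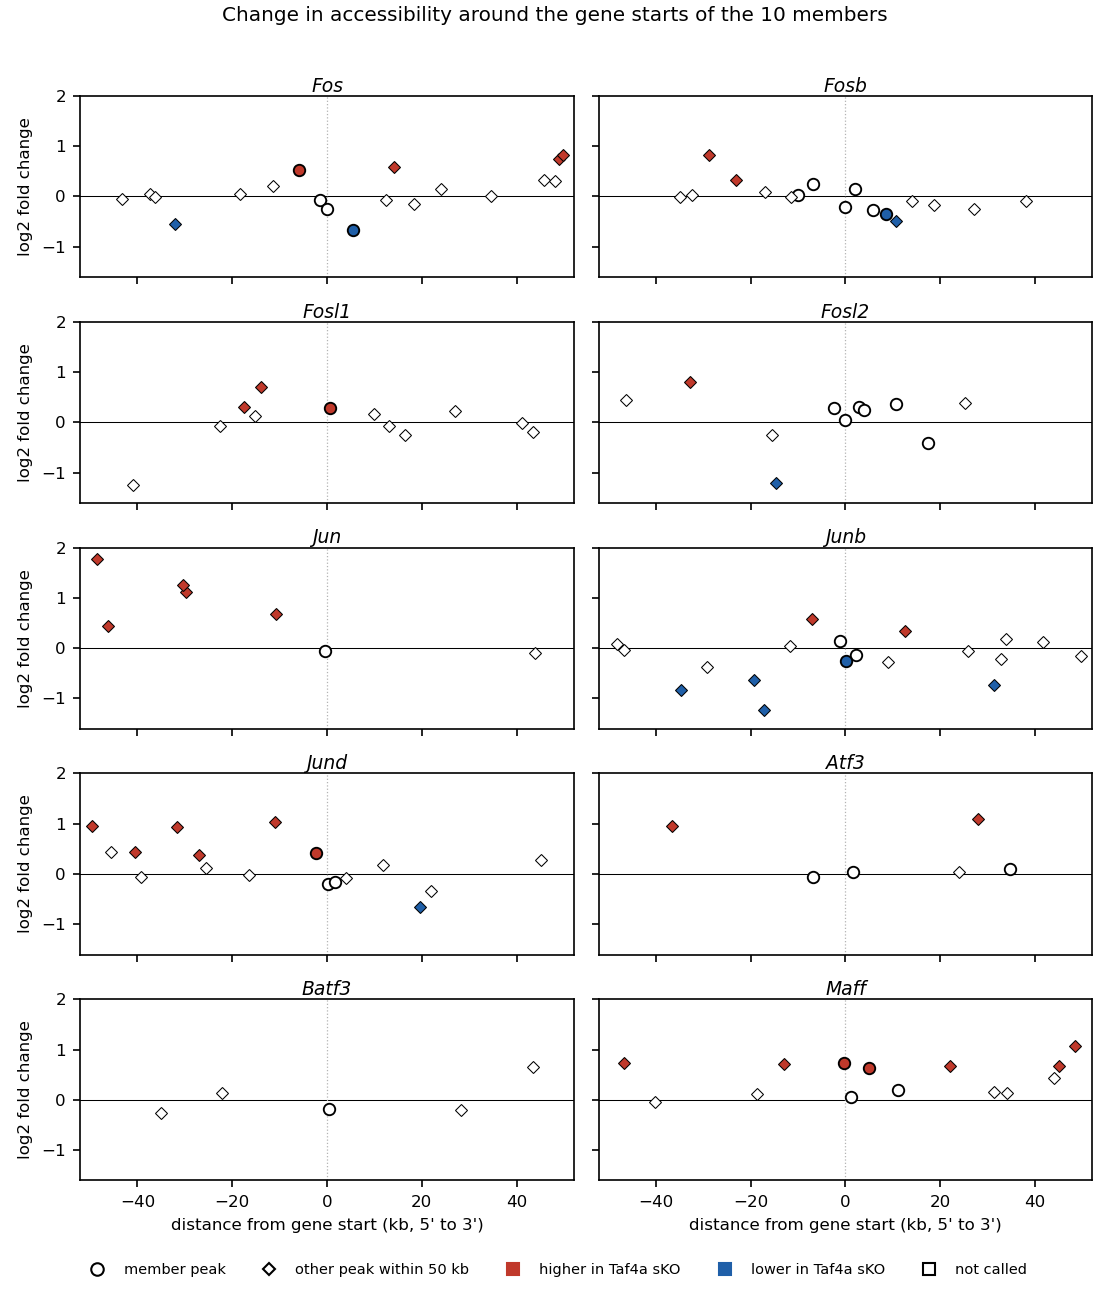
Log2 fold change (Taf4a sKO against control, vertical) against distance from the gene start (kb, horizontal, negative upstream along the direction of transcription) for the member peaks (circles) and all other peaks within 50 kb (diamonds) of each gene. Red marks higher, blue lower and white uncalled peaks; upstream of Jun 5 red diamonds rise to 1.78 while the promoter circle sits at -0.05.

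Maff also had 5 of 10 surrounding peaks called higher and 0 lower (limma), led by an intronic peak of Tmem184b at chr15:79394835-79395093, which went from 163, 140 and 145 to 329, 269 and 356 (log2 fold change 1.08, adjusted p = 6.8e-06). Of the 14 around Jund, 5 rose and 1 fell, and 4 rose and 4 fell after median-of-ratios scaling. The intergenic peak centred 11012 bp upstream of Jund (chr8:70687366-70688507) went from 375, 464 and 490 to 938, 813 and 956 (1.03, adjusted p = 1.1e-06). Of the 5 around Fosl2, 1 rose and 1 fell, on the deposited scale and after median-of-ratios scaling. Upstream of Fosl2, the intergenic peak at chr5:32102046-32103907 went from 1221, 1347 and 1531 to 2592, 2192 and 2356 (0.80, adjusted p = 3.7e-06). The intergenic peak centred 14659 bp upstream (chr5:32120867-32121417) fell, with all Taf4a sKO values below all control values. Its log2 fold change was -1.21 (SE 0.41, limma adjusted p rounding to 0.05), and -1.32 after median-of-ratios scaling (adjusted p = 0.0098). Upstream of Atf3, the intergenic peak at chr1:191254224-191254996 went from 640, 622 and 786 to 1558, 1126 and 1304 (0.96, adjusted p = 4.3e-06). In each of the peaks named here that rose, all Taf4a sKO libraries exceeded all control libraries.

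Around Junb the calls went both ways, with 2 of 16 peaks higher and 4 lower. The intergenic peak centred 7128 bp upstream (chr8:84985232-84986459) rose from 2201, 2077 and 2425 to 3462, 3156 and 3442 (log2 fold change 0.59, adjusted p = 5.8e-05). An exonic peak of Hook2 (chr8:84995668-84996049) fell from 203, 170 and 169 to 86, 62 and 83 (-1.23, adjusted p = 1.1e-05). Around Fos 3 of 15 rose and 1 fell, around Fosb 2 of 11 rose and 1 fell, around Fosl1 2 of 11 rose and 0 fell (limma), and around Batf3 none of the 4 passed limma's threshold, with log2 fold changes of -0.27 to 0.66. With median-of-ratios scaling 6 fell around Junb, 2 around Fos, 5 around Fosb, 3 around Fosl1 and 1 around Batf3, and the counts that rose were the same as on the deposited scale for these 5 genes.

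The DNA motif that AP-1 dimers bind was then located in the peaks. The AP-1 site was searched as TGACTCA on both strands (TGAGTCA on the other), the CRE as TGACGTCA; neither contains the other. Of all peaks tested, 26.1% held an AP-1 site. The share was 38.4% among peaks that rose, 19.9% among those that fell and 21.6% among those not called. Peaks that rose had a median width of 620 bp, about that of uncalled peaks (612 bp) and above that of peaks that fell (475 bp). Per 100 kb of peak sequence there were 69.9 matches in peaks that rose, 40.9 in those that fell and 35.6 in the others. The order of the last 2 densities was not stable: it was 32.7 and 39.2 after median-of-ratios scaling, 29.8 and 41.5 after quantile normalization, and 45.8 and 53.9 for peaks over no start site on the deposited scale, while peaks that rose had the most matches in each case (70.0, 72.4 and 76.7). The order of the shares was the same over a transcription start site (30.2%, 12.2% and 14.6%) and elsewhere (39.4%, 20.7% and 24.4%), and after median-of-ratios scaling (39.3%, 19.1% and 22.7%). The CRE gave 1.90%, 1.07% and 2.26% in the same order.

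**Figure D5:**
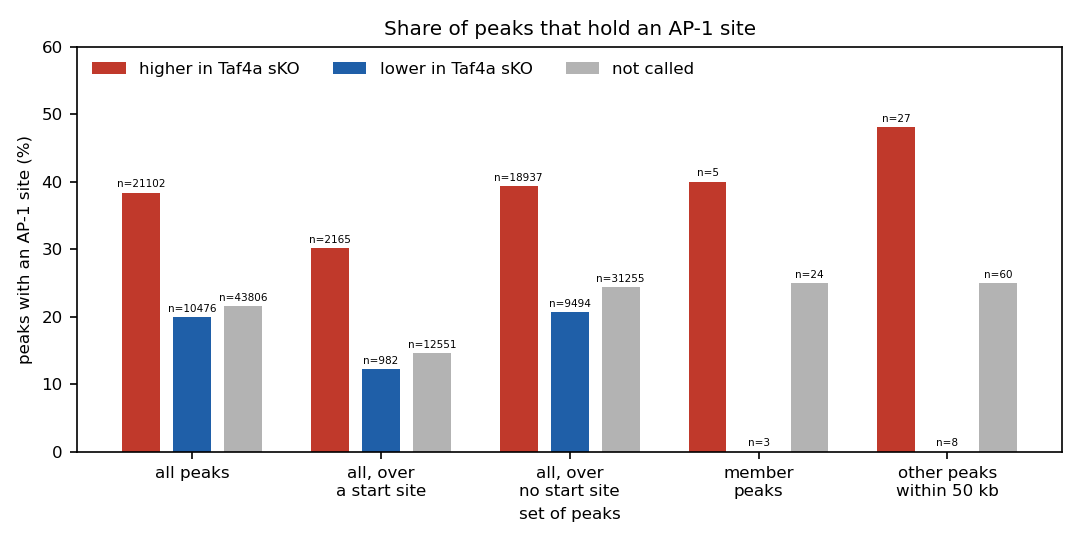
Share of peaks with an AP-1 site (vertical, %) among peaks higher in Taf4a sKO MuSCs (red), lower (blue) and not called (grey), for all peaks, those over and not over a transcription start site, the 32 member peaks and the 95 other peaks within 50 kb; n is the number of peaks in each bar. Among all peaks the shares are 38.4%, 19.9% and 21.6%. On the deposited scale, used here, none of the 3 member peaks and none of the 8 other peaks that fell holds a site. After median-of-ratios scaling a peak of Atf3 and peaks around Fosb and Jund were called lower and hold a site.

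Among the member peaks themselves, 8 of 32 (25.0%) held an AP-1 site. On the deposited scale these were 2 of the 5 that rose (those of Fosl1 and Maff printed above), 0 of the 3 that fell and 6 of the 24 not called. After median-of-ratios scaling 12 member peaks fell, among them the Atf3 peak at chr1:191223950-191225633, which holds a site. In the 95 surrounding peaks the counts on the deposited scale were 13 of 27 that rose, 0 of 8 that fell and 15 of 60 not called. After median-of-ratios scaling 22 surrounding peaks fell. Of these, the peaks around Fosb at chr7:19271158-19272841, chr7:19282280-19283668 and chr7:19344254-19345658 hold a site, as does the one around Jund at chr8:70702648-70703234. Of the 5 increased peaks upstream of Jun, 3 held a site, and the peak upstream of Junb held 4. The 3 Jun sites are shown because the first lies in the most increased peak within 50 kb of any of the 10 genes (plus strand, GRCm38, 20 bases on either side; chr4:95100889-95100935, chr4:95081833-95081879 and chr4:95098412-95098458). A match is a run of letters and not evidence of binding.
Jun site 48.6 kb upstream: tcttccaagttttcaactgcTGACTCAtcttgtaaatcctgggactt
Jun site 29.7 kb upstream: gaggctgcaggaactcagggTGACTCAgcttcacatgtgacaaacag
Jun site 46.2 kb upstream: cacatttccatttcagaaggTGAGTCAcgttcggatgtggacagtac

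RefSeq promoter windows (GRCm38, from 250 bases before to 50 after a start) were at hand for 9 of the 10 genes, all but Fosl1. The AP-1 site was in none of the 9, and 5.95% of 27025 genes had a window that held it. A CRE was found for Maff alone (2.03% of all genes). The window of Jund lies at another start, before its promoter peak, and so does not cover the Jund CRE printed above. A TATA box (TATAAA) was in those of Fos and Junb (15.7%), a CCAAT box in those of Atf3, Jun and Junb (41.1%), and a GC box (GGGCGG) in 7 of 9 (38.2%). The CArG box of Fos lies outside this window, and no window of the 9 held one (1.81%).

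The other genes of the pathway were described by lists chosen with earlier results of these data known, and no list was tested. The counts of peaks that fell depended on the scaling in all 4 lists: after median-of-ratios scaling, which called 25.3% of all peaks higher and 22.5% lower, 3 rose and 7 fell among the kinases and serum response factors, 8 and 17 among other bZIP genes, 29 and 23 among immediate early genes outside bZIP, and 18 and 6 among AP-1 targets. On the deposited scale, of 43 peaks of 28 upstream kinases and serum response factors, 3 rose (6.98%) and 1 fell (2.33%), where 28.0% and 13.9% of all peaks did, with a median log2 fold change of 0.09. The 3 that rose belonged to Map3k5, a stress-activated kinase (1.16, adjusted p = 3.4e-05), Map2k3, which activates p38 (0.65, adjusted p = 0.00084), and Map2k1, which activates ERK (0.26, adjusted p = 0.048). The one that fell lies at Rps6ka5, a nuclear kinase downstream of p38 and ERK, and went from 356, 350 and 418 to 105, 100 and 84 (-1.95, adjusted p = 4.2e-09). Of 66 peaks of 35 other bZIP genes, 10 rose (15.2%) and 3 fell (4.55%), with a median of 0.07. Peaks rose at Mafk, a small Maf like Maff (0.92, adjusted p = 6.4e-07), at Cebpd (2.13, adjusted p = 2.1e-05), at Nfe2l2, the regulator of the antioxidant response (0.95, adjusted p = 4.3e-05), and at Creb3l2 (0.73, adjusted p = 5.5e-05). Peaks fell at Nfe2l1 (-1.15, adjusted p = 1.7e-06) and Mafa (-0.68, adjusted p = 8.1e-05). The Cebpd peak that rose is weak and centred in an exon of Spidr, with 13, 22 and 34 in control and 111, 118 and 70 in Taf4a sKO MuSCs. Another Cebpd peak (chr16:15886644-15888152) was not called (-0.11, limma adjusted p = 0.42). After median-of-ratios scaling that peak was called lower (-0.23, adjusted p = 0.0011).

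Immediate early genes outside the bZIP class had peaks that rose and peaks that fell. Of 90 peaks of 31 such genes, 29 rose (32.2%) and 8 fell (8.89%), with a median of 0.12, beside 28.0% and 13.9% of all peaks. Dusp1 had no peak under its symbol. Ier5 had the 2 peaks with the smallest p, which rose by 1.43 (adjusted p = 7e-08) and 1.27 (adjusted p = 7.3e-08), and another by 0.93 (adjusted p = 9.6e-07). The Ier5 peak at chr1:155098191-155099974 was not called (-0.03, limma adjusted p = 0.85), but was called lower after median-of-ratios scaling (-0.14, adjusted p = 0.023). A peak of Socs3, a feedback inhibitor of cytokine signalling, rose by 1.38 (adjusted p = 9.3e-07). Peaks fell at Klf4 (-1.33, adjusted p = 5.9e-07), Egr1 (-1.04, adjusted p = 2.8e-06) and Klf10 (-0.50, adjusted p = 0.0045), and over the start of Ier2 (-0.40, adjusted p = 0.0035). Another peak of Klf4, in an exon, rose (0.33, adjusted p = 0.027), a call that quantile normalization did not make (0.11, adjusted p = 0.26). At the Egr1 peak the values went from 1116, 816 and 1115 to 495, 544 and 428.

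Genes commonly listed as AP-1 targets had called peaks in the upward direction on the deposited scale. Of 41 peaks of 14 genes, 18 rose (43.9%, beside 28.0% of all peaks) and 0 fell by limma, with a median of 0.32. Of the 41, 8 had a negative log2 fold change, and Mmp3, Mmp10, Mmp13 and Spp1 had no peak under their symbols. Over the start of Plaur, the urokinase receptor gene, values went from 540, 427 and 565 to 1106, 958 and 959 (0.99, adjusted p = 1.6e-06), and at a neighbouring Plaur peak from 117, 116 and 187 to 397, 378 and 394 (1.51, adjusted p = 5.3e-07). A peak at Ccnd1, the cyclin D1 gene, rose as well (1.20, adjusted p = 3e-06). In these 3 peaks the genotypes were apart. Whether the changes of this list differed from those of the member peaks was not tested.

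The labelled cell type and the targeted gene were checked in the same values. All 12 MuSC marker genes had peaks (53 in all, of which 15 rose and 5 fell, 28.3% and 9.43% beside 28.0% and 13.9% of all peaks; 12 and 12 after median-of-ratios scaling), and the strongest, at Heyl, had means of 4520 and 4399. Among haematopoietic markers, Ptprc (CD45), Adgre1, Itgam, Lyz2 and Cd3e had no peak under their symbols, and the 4 peaks of Spi1, Csf1r and Cd68 (1 rose, 1 fell) summed to 1043, 1149 and 1249 in control and 1381, 1236 and 1514 in Taf4a sKO libraries. The 6 endothelial marker peaks (2 rose, 1 fell; none under the symbols Tie1 or Emcn; strongest at Tek) summed to 1895, 1668 and 2191 against 2465, 2474 and 2329, and the 15 fibro-adipogenic ones (6 rose, 2 fell; none under the symbol Ly6a; strongest at Col1a1) to 10614, 9627 and 11962 against 13985, 12861 and 12505. The 11 myofibre marker peaks (0 rose and 3 fell by limma; strongest at Myh1) summed to 4213, 4056 and 4789 against 4299, 3742 and 3857. As shares, 25.0% and 25.0% of the haematopoietic peaks rose and fell, 33.3% and 16.7% of the endothelial, 40.0% and 13.3% of the fibro-adipogenic, and 0% and 27.3% of the myofibre peaks, on few peaks each. The part of these differences in the member results was not tested. At the targeted gene, listed as Taf4, the peak over exon 12 had values of 65, 78 and 137 in control and 44, 22 and 25 in Taf4a sKO libraries (log2 fold change -1.58, limma adjusted p = 0.00034). Other peaks of the gene were called too: the peak overlapping exon 7 (chr2:179931701-179932202) had a log2 fold change of -0.83 (adjusted p = 0.00014), an intronic peak of -0.49 (adjusted p = 0.027), the peak upstream of the gene of 0.55 (adjusted p = 0.003), whereas the promoter peak, at -0.07 (adjusted p = 0.59), was called lower only after median-of-ratios scaling (-0.19, adjusted p = 0.0087) or quantile normalization (-0.20, adjusted p = 0.0021).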

How the data were processed

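Per the labels and the study's methods, the authors trimmed reads with Trimmomatic 0.39, aligned them to mm10 with STAR 2.7.11b, removed duplicates with Picard 3.1.1, called peaks per sample, unified them and counted reads with featureCounts. A shift for the Tn5 insertion is not described, and the labels and the methods describe different lysis conditions. The deposited values are a score: counts that the authors normalized for depth and rounded to whole numbers. Below 100, every whole number occurs in control library 2, while 19 to 28 are missing in each other library. They are not raw counts, and 3 libraries per genotype limit precision. The study gives 3 biological replicates for the ATAC-seq; the labels name no animal for a library, and p-values measure the spread between libraries.

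The fit was tested on simulated libraries of equal depth, so that test does not cover the dependence on scaling. Peaks with a mean above 10 (75384 of 75412) were tested with limma 3.58.1 (R 4.3.3, trend, robust) on log2(value + 1). P-values were adjusted over all these peaks by Benjamini and Hochberg's method. Fold changes are on that log2 scale. Ratios between 2 peaks of a library were set out as values; 3 against 3 libraries cannot pass 0.05 in an exact permutation test (SciPy 1.17.1). Starts, exons and introns came from GENCODE vM21, which held 99.8% of the table's genes, and sequences from GRCm38 and RefSeq, read with pysam 0.24.0. A peak's place was judged at its centre. The authors annotated peaks within 10 kb of the nearest gene start.

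Members and lists (other bZIP factors, immediate early genes outside bZIP, upstream kinases and serum response factors, AP-1 target genes, cell type markers) were chosen with earlier results of these data known. Named were all member peaks called or at a promoter, up to 4 called peaks per direction and list by adjusted p, and up to 3 called neighbouring peaks per member. Some genes of the lists are not reported here by name. Alternatives covered scaling, pseudocount, filter, threshold, annotation, a replicate block and each library left out. No column of library values was left unused (0).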

Additional observations from a re-analysis of the deposited data

How the results depend on the processing

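The counts changed with the scaling and with single libraries. On the deposited scale 5 member peaks were called higher and 3 lower. Median-of-ratios scaling called 12 lower, and quantile normalization called 3 higher and 13 lower. For promoter peaks, with 2 higher and 1 lower on the deposited scale, median-of-ratios scaling called 5 lower and quantile normalization 1 higher and 6 lower. For all peaks, with 21102 higher and 10476 lower, 19090 rose and 16943 fell under the first and 18700 rose and 18897 fell under the second. Both scalings set the median peak near 0 by construction (-0.007 and -0.024 against 0.105). With the log2 ratio threshold of 1 in place of the test, 0 member peaks were higher and 0 lower. Without 1 library in turn, 3 to 13 member peaks were higher and 1 to 7 lower, 1 to 3 promoter peaks higher and 0 to 4 lower, and 16024 to 28502 of all peaks higher and 8565 to 10038 lower; without control replicate 3, 13 member peaks rose and 1 fell, and without control replicate 2, 3 rose and 7 fell. The cause was not tested. A minimum mean of 50 left 0 promoter peaks lower. Taking the strongest peak over an annotated start as promoter (for Junb, the peak over the gene start), chosen after seeing the data, left 1 higher. This choice, the counting of 2 further Atf3 peaks, the ratios within a library and the other scalings of the remaining lists were added choices.

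Same-numbered libraries did not deviate together (correlations 0.1099, -0.1175 and -0.0289), beside -0.1204 to 0.151 for libraries with different numbers. The numbers thus gave no sign of a pairing of the samples, which 3 libraries per genotype cannot exclude. With the replicate block, 6 member peaks were higher and 2 lower, 2 promoter peaks higher and 0 lower (the Junb peak had an adjusted p of 0.057), and 21944 of all peaks higher and 11004 lower. The other alternatives (a pseudocount of 10, no filter, the symbol alone, all peaks within 10 kb of a start) stayed within 1.5 times each count. The study lists total and uniquely mapped reads for each library, but the values do not hold the count of each peak before normalization. Counting error was therefore not separated from the spread between libraries.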
